A study of Rattus norvegicus with 10 samples.

Results

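The genes described here are the oxygen-sensing transcription factor pathway built around the hypoxia-inducible factors (HIF) and the vascular endothelial growth factor (VEGF) ligands: *Hif1a*, *Epas1*, *Arnt*, *Vhl*, *Egln1*, *Egln3*, *Vegfa*, *Vegfb*, *Vegfc* and *Epo*. They were taken by symbol from a table of 32545 genes, of which 9 of the 10 symbols had a row, and *Egln1* was not analysed here. The values come from RNA sequencing of renal cortex, 1 library per rat, from 5 male and 5 female PCK rats (PCK/CrljCrl-Pkhd1pck/Crl), which carry a mutation of *Pkhd1* and are a model of autosomal recessive polycystic kidney disease. Sex is the only comparison of the series, so every rat carries the mutation and no unaffected rat is part of the comparison. The labels give an age of 12 to 14 weeks and the methods 10 to 12 weeks, the rats were littermates of 2 litters with different parents, and the kidneys were flushed with buffer before freezing. The litter of each rat was not taken into account, and cortex is a mixture of tubules, glomeruli, vessels, interstitium and cyst lining.

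In well-oxygenated cells, prolyl hydroxylases of the EGLN family modify the α subunits of HIF, and the ubiquitin ligase that contains VHL then sends them for degradation, so HIF activity is set largely at the protein and not at the mRNA. When oxygen falls, the α subunits pair with ARNT, bind a short core motif in DNA and raise target genes that include *Vegfa*, *Egln3* and *Epo*. In the kidney, HIF1α is known mainly from tubule epithelium and HIF2α, the product of *Epas1*, from endothelium, glomeruli and interstitial fibroblasts, and the latter make erythropoietin. VEGFA is made by podocytes and tubules and keeps up the capillaries beside them.

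The HIF core motif has the forms ACGTG and GCGTG, and both were searched on both strands in the 250 bases before each annotated start, taken from RefSeq on build GRCr8 (the expression values are on Rnor_6.0, whose coordinates are not interchangeable with these). All 10 symbols matched a RefSeq entry, in 11 windows, since *Vegfa* has 2. Either form was present in 5 of the 11 windows (45.5%), beside 36.7% of the 33469 windows of all genes (16.6% for ACGTG and 25.9% for GCGTG). The window of *Hif1a* (chr6:98359648-98359897, plus strand) is shown because it held the most matches, and that of *Vegfa* (chr9:22452604-22452853, plus strand) because this gene passed a test between the sexes below and neither of its windows held one. Capitals mark the matches, and the first in *Hif1a* reads as ACGTG on both strands, the overlapping matches spanning −229 to −224 from the start.
Hif1a: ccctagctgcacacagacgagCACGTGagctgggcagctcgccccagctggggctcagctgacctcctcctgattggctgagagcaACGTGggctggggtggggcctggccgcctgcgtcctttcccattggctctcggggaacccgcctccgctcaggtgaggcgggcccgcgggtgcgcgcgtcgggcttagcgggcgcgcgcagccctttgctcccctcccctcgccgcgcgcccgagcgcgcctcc
Vegfa: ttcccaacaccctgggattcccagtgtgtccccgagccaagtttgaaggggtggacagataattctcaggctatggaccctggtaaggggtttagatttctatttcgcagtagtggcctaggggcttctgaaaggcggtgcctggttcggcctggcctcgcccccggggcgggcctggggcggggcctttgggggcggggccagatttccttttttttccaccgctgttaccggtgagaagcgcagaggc
The single matches of *Vegfb* (chr1:213607203-213607232, minus strand), *Arnt* (chr2:185686649-185686678, plus strand) and *Epo* (chr12:24841238-24841267, plus strand) are shown with the bases around them, as they are the other matches in genes whose expression is given below.
Vegfb: cgggtggggagcGCGTGtttaggtcacatg
Arnt: ccatggtatgggGCGTGtcttctcccccag
Epo: tgaagactcacaGCGTGgacactggcccag
They lie at −68 to −64, −42 to −38 and −35 to −31 from the start. The remaining match was in *Egln1*, and the windows of *Epas1*, *Vhl*, *Egln3* and *Vegfc* held none. A match in these letters is a description of the sequence and not a binding site, and the best-known HIF elements of *Vegfa* and *Epo* lie outside such windows, farther upstream and 3′ of the gene.

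The depth was 13912569 to 20285911 reads on genes per library. Two-sided exact permutation tests compared mean FPKM between the sexes for single genes, with 0.00794 as the smallest p that 5 rats against 5 allow, and limma on log2(FPKM + 0.1) gave fold changes of females over males and p-values adjusted over all 17631 genes tested. The smallest exact p is 0.0159 with 1 library left out and larger again when another is left out. In such fits p can rise although the difference does not shrink. Male 5 and female 2 were least like the other libraries of their sex, with a mean correlation over genes of 0.952 and 0.948 against 0.957 to 0.962 for the others, and female 2 had the highest share of reads on mitochondrial genes (26.8%, against 14.3% to 19.1% elsewhere).

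The levels of the members are given in FPKM, which is per length and so can be set side by side between genes. *Vegfa* was highest and *Epas1* next, and *Vegfa* exceeded *Epas1* in 9 of the 10 libraries. The level of *Epas1* exceeded that of *Hif1a* in every library, 1.39 to 1.79 times, and the 2 ranges did not overlap. *Hif1a* and *Vegfb* were neighbours whose levels were not set apart, since *Hif1a* was higher in 7 of 10 libraries, and *Vegfb* in turn exceeded *Vhl* in 9 of 10. *Arnt* lay below *Vhl* and *Egln3* below *Arnt* in every library. *Egln3* exceeded *Vegfc* in 9 of 10, and *Epo* was lowest in all of them. The spread between rats, as the coefficient of variation over all 10 libraries, was smallest for *Hif1a* (7.65%) and largest for *Epo* (75.0%).

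**Figure D1:**
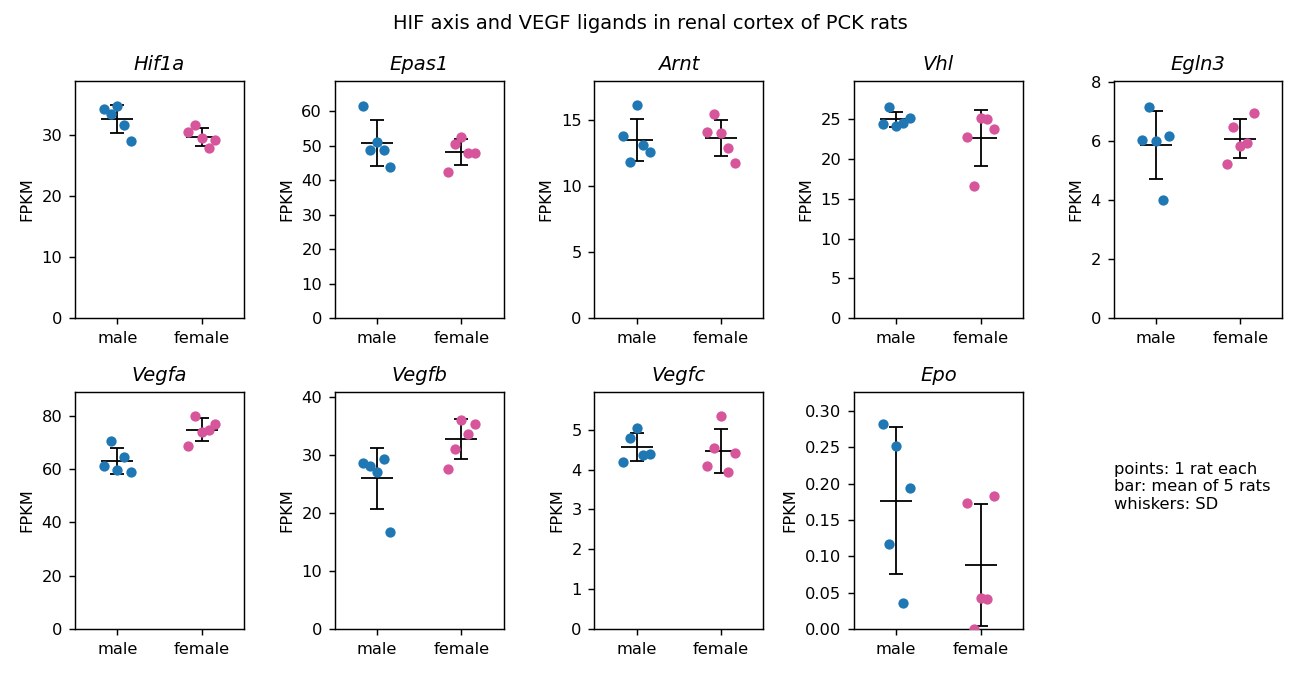
Expression of the 9 members in FPKM (vertical axes, each starting at 0) in each of 5 male and 5 female PCK rats, with 1 point per rat, the mean as a bar and the SD as whiskers. The points of females lie mostly above those of males for Vegfa and Vegfb, with male 5 at 16.7 FPKM the lowest point of Vegfb and female 2 at 16.6 FPKM the lowest of Vhl.

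Among the members, *Vegfa* and *Vegfb* were higher in females by the exact test, by 1.19 and 1.26 times, and the HIF subunits, *Vhl*, *Egln3*, *Vegfc* and *Epo* did not pass it. The count is 2 of 9, both higher, where 14.8% of all tested genes passed in either direction and 7.45% in that direction (7.38% in the other), so with 9 genes the count describes these ligands and not the list. By limma, 0 of 9 passed an adjusted p of 0.05 (2.4% of all tested genes did, 1.26% higher and 1.14% lower in females, and 1.32% did with a log2 fold change of at least 1, while 2 members had an unadjusted p of at most 0.05, as 15.7% of all tested genes had, and limma-voom on recovered reads also called 0). No member had FPKM ranges that were separate between the sexes, as 5.1% of all tested genes had (2.5% higher and 2.6% lower in females). The median log2 fold change of the 9 was −0.03, beside −0.01 over all tested genes. In bulk tissue a lower level can come from fewer cells of a type or from less RNA per cell, which cannot be told apart.

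*Hif1a* (ENSRNOG00000008292, chromosome 6, 96810907 to 96856052) encodes the oxygen-regulated α subunit of HIF1. Its expression was 34.3, 33.4, 34.8, 31.7 and 29.1 FPKM in males 1 to 5. In females 1 to 5 it was 30.5, 31.6, 29.5, 27.8 and 29.2 FPKM. All 5 females were below the male mean, but male 5 lay among the females and the ranges overlapped. The fold change was −0.13 on the log2 scale (SE 0.07, 95% interval −0.29 to 0.02), with a limma adjusted p of 0.409. The exact test gave p = 0.0635 with all libraries and p = 0.0159 without male 5, so that library decides on which side of 0.05 it falls.

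*Epas1* (ENSRNOG00000021318, chromosome 6, 10306405 to 10387265) encodes the α subunit of HIF2. It was at 61.5, 48.8, 51.2, 48.7 and 43.8 FPKM in males and at 42.4, 50.5, 52.6, 47.8 and 47.9 FPKM in females. Male 1 was the highest and female 1 the lowest of the 10, and the other 8 rats overlapped. The means were 50.8 ± 6.58 and 48.2 ± 3.80 FPKM (SD, n = 5 each), which did not differ beyond the spread (exact permutation test, p = 0.524). Limma gave a 95% interval of 0.821 to 1.11 for the female over male ratio. *Arnt* (ENSRNOG00000031174, chromosome 2, 196594303 to 196651179), the constitutive β subunit that both α subunits need, was at 13.8, 11.9, 16.1, 13.1 and 12.6 FPKM in males and 14.1, 15.5, 14.0, 12.9 and 11.8 FPKM in females. Its ranges lay almost on each other, and the means were 13.5 ± 1.63 and 13.7 ± 1.40 FPKM (exact permutation test, p = 0.865, n = 5 each). The 95% interval of the female over male ratio from limma was 0.866 to 1.18.

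*Vhl* (ENSRNOG00000010258, chromosome 4, 145580799 to 145587845), the substrate-recognition part of the ligase that removes hydroxylated HIFα, was at 24.4, 26.6, 24.2, 24.6 and 25.2 FPKM in males. In females it was at 22.8, 16.6, 25.2, 25.1 and 23.8 FPKM. The coefficient of variation among males was 3.93%, the smallest of any member in either sex, while female 2 lay well below the rest. The means of 25.0 ± 0.984 and 22.7 ± 3.53 FPKM did not differ beyond the spread by the exact permutation test (p = 0.159, n = 5 each). Rescaling each library to its reads on nuclear genes gave a difference of −3.47 FPKM with p = 0.0238 by the same exact test, and leaving out female 2 gave −0.818 FPKM with p = 0.317. *Egln3* (ENSRNOG00000005053, chromosome 6, 75050329 to 75075795), a prolyl hydroxylase that is itself a HIF target, was at 6.05, 7.15, 6.01, 4.0 and 6.16 FPKM in males and 5.23, 6.48, 5.85, 5.92 and 6.94 FPKM in females. Every female lay inside the range of the males (exact permutation test, p = 0.778, n = 5 each), and limma gave a 95% interval of 0.836 to 1.31 for the female over male ratio.

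*Vegfa* (ENSRNOG00000019598, chromosome 9, 17340341 to 17355681), the main ligand for blood vessel endothelium, was at 61.1, 70.6, 59.5, 64.7 and 58.8 FPKM in males. It was at 68.4, 79.8, 74.0, 74.7 and 76.8 FPKM in females. Females 2 to 5 were above every male, and female 1 overlapped only with male 2. The fold change was 0.25 on the log2 scale (SE 0.08, 95% interval 0.08 to 0.41, limma adjusted p = 0.126), and 3039 to 4721 reads per rat lay behind it. Leaving out each library in turn kept the difference at 10.6 to 13.7 FPKM with exact permutation p-values of 0.0159 to 0.0317, while leaving out male 5 and female 2 together gave 9.53 FPKM and p = 0.0571.

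*Vegfb* (ENSRNOG00000021156, chromosome 1, 222239022 to 222242644), a ligand of FLT1 better known from heart and fat metabolism than from vessel growth, was at 28.7, 28.2, 27.2, 29.4 and 16.7 FPKM in males. In females it was at 27.6, 31.1, 36.1, 33.6 and 35.5 FPKM. Again females 2 to 5 were above every male, and female 1 overlapped with the males. The means were 26.0 ± 5.28 and 32.8 ± 3.48 FPKM (exact permutation test, p = 0.0317, n = 5 each), and the fold change was 0.35 on the log2 scale (SE 0.15, limma adjusted p = 0.293). Without male 5 the difference was 4.43 FPKM with an exact p of 0.0635, in place of 6.76 FPKM, and the exact p was also 0.0635 without male 3 or without any 1 of females 2 to 5. The difference was larger, at 7.05 and 7.18 FPKM, without male 3 and without female 2. It was 5.93 to 6.56 FPKM without female 3, 4 or 5. The smallest exact p possible in these fits is 0.0159.

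*Vegfc* (ENSRNOG00000011416, chromosome 16, 40440207 to 40555576), the ligand that drives lymphatic growth through FLT4, did not differ between the sexes beyond the spread. It was at 4.20, 4.80, 5.05, 4.35 and 4.39 FPKM in males and at 4.09, 4.53, 5.34, 3.93 and 4.42 FPKM in females. The females spanned the whole male range (exact permutation test, p = 0.770, n = 5 each), and limma gave a 95% interval of 0.829 to 1.15 for the female over male ratio. *Epo* (ENSRNOG00000001412, chromosome 12, 22274828 to 22278266), the red cell hormone, was close to the limit of detection. It had 6, 3, 5, 1 and 4 reads in males and 4, 0, 1, 1 and 4 reads in females, where 3 reads were taken as the floor. Males lay between 0.0353 and 0.282 FPKM and females between 0 and 0.183 FPKM (exact permutation test, p = 0.167, n = 5 each). No difference in *Epo* was found with so few reads, and no fold is given. The floor covers counting error only.

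**Figure D2:**
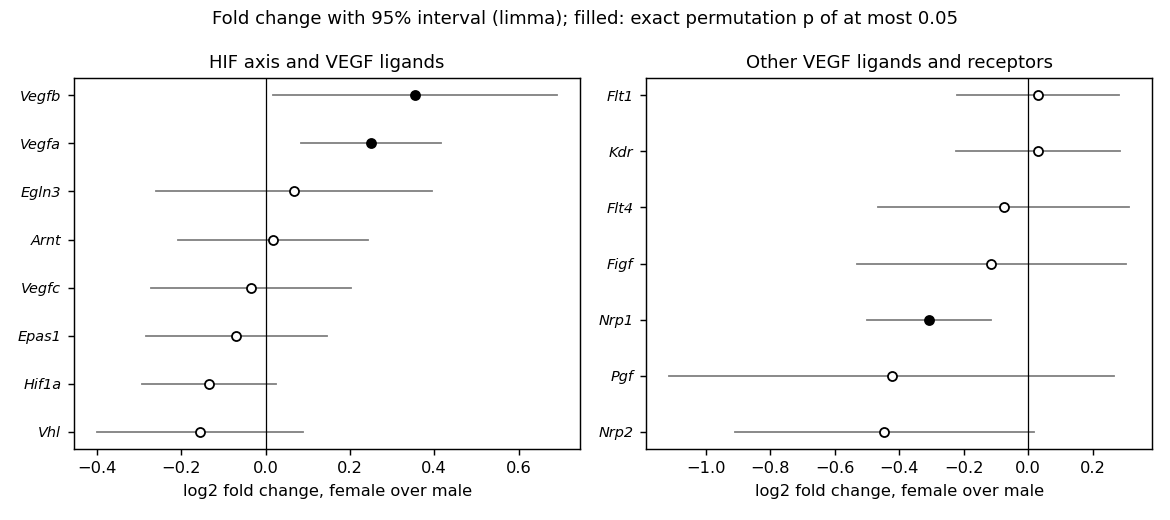
Log2 fold change of females over males (horizontal axes) with the 95% interval from limma for the members other than Epo on the left and the 7 other VEGF ligands and receptors on the right, with filled points where the exact permutation p was at most 0.05. Vegfb and Vegfa are filled on the right of zero at 0.35 and 0.25 and Nrp1 is filled on the left at −0.31.

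Levels of the members relative to each other within a library were computed after their values had been seen, so they are given as descriptions without a test. *Vegfa* was at 1.78, 2.11, 1.71, 2.04 and 2.02 times *Hif1a* in males and at 2.25, 2.52, 2.51, 2.68 and 2.63 times *Hif1a* in females. All 5 females had a higher ratio than any male, although neither gene alone had separate ranges. How many other pairs of genes separate in this way was not computed. *Epas1* over *Hif1a*, the balance of the α subunits at the mRNA, was 1.55 ± 0.138 in males and 1.63 ± 0.148 in females with overlapping ranges. *Vegfb* over *Vegfa* was 0.413 ± 0.0771 in males, where male 5 was lowest at 0.284, and 0.439 ± 0.0409 in females. *Vegfa* over *Vegfc* was 11.8 to 14.8 in males and 13.9 to 19.0 in females, and female 3 alone lay inside the male range. *Hif1a* over *Vhl* was 1.31 ± 0.116 and 1.35 ± 0.320, with female 2 the highest at 1.90.

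**Figure D3:**
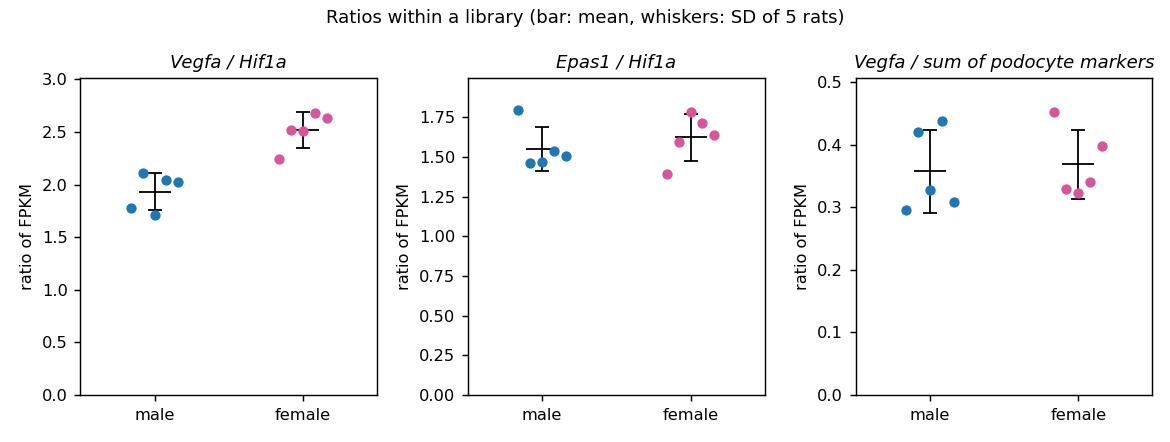
Ratios of FPKM within a library (vertical axes, starting at 0) for Vegfa over Hif1a, Epas1 over Hif1a and Vegfa over the summed podocyte markers, with 1 point per rat, the mean as a bar and the SD as whiskers. The ratio of Vegfa to Hif1a was 1.71 to 2.11 in males and 2.25 to 2.68 in females, and the other 2 ratios overlapped between the sexes.

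Of 7 VEGF receptors and remaining ligands, limma called 0 (1 had an unadjusted p of at most 0.05, as 15.7% of all tested genes had), and 1, *Nrp1*, passed the exact test, lower in females. That count is no larger than the 14.8% of all tested genes would give, so it describes *Nrp1* and not the list, whose median log2 fold change was −0.11. *Nrp1*, the neuropilin coreceptor that binds VEGFA, was at 26.4, 25.1, 28.6, 23.8 and 28.4 FPKM in males and 20.3, 24.6, 22.4, 20.1 and 19.5 FPKM in females. In 4 of 5 females it was below every male, and female 2 overlapped. Its fold change was −0.31 on the log2 scale (SE 0.09, limma adjusted p = 0.107), and the exact permutation test gave p = 0.0159. Of 20 other limma settings, 1 called it, without female 2 (adjusted p = 0.0404), and the highest adjusted p was 0.242. The main signaling receptors of VEGFA did not differ beyond the spread between rats. *Kdr* was at 14.1 ± 0.885 and 14.5 ± 2.44 FPKM (95% interval of the ratio from limma 0.856 to 1.22) and *Flt1* at 8.50 ± 1.29 and 8.65 ± 0.928 FPKM (0.859 to 1.21). *Flt4*, *Nrp2*, *Pgf* and *Figf*, the VEGFD gene, had log2 fold changes of −0.08, −0.45, −0.42 and −0.11, none past either test.

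A further list of 12 regulators of the pathway was tested, comprising other subunits and hydroxylases, ligase components and coactivators. Each test called 1 of them, *Cited2*, which was higher in females, beside 2.4% of all tested genes called by limma (1.26% higher) and 14.8% by the exact test (7.45% higher), so the count describes *Cited2* and not the list. The median log2 fold change of the 12 was 0.09, with 8 above 0 and 4 below. *Cited2* (ENSRNOG00000056940, chromosome 1, 12823363 to 12825786) encodes a protein that competes with HIFα for the coactivators EP300 and CREBBP, and it is itself induced by HIF. It was at 64.6, 68.7, 67.1, 82.9 and 62.1 FPKM in males and 96.7, 137, 87.8, 97.3 and 117 FPKM in females. Every female was above every male. The fold change was 0.62 on the log2 scale (SE 0.13, limma adjusted p = 0.0288), and the exact permutation test gave its smallest p of 0.00794. The limma call was lost under quantile normalization (adjusted p = 0.0650) and without male 1, 2, 3 or 5 or female 5 (adjusted p of 0.0699 to 0.0816), and without male 5 and female 2 together (adjusted p = 0.0607), where the fold change was lowest at 0.49, and the gene is below a log2 fold limit of 1. The coactivators themselves, *Ep300* and *Crebbp*, had log2 fold changes of −0.20 and −0.02, and the hydroxylase genes *Egln2* and *Hif1an* had 0.03 and −0.02, none past either test. *Egln2* overlaps *Cyp2t1* on the opposite strand and the strand setting of the counting is not stated, so its level is uncertain.

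Textbook HIF target genes did not move in 1 direction. Of 28 rows tested, limma called 0 (6 had an unadjusted p of at most 0.05, beside 15.7% of all tested genes). By the exact test 6 passed, 3 higher and 3 lower in females, beside 14.8% of all tested genes, 7.45% higher and 7.38% lower. The median log2 fold change was −0.07, with 11 above 0 and 17 below. Those higher were *Bnip3*, a mitophagy receptor, at 91.8 ± 12.2 and 111 ± 11.5 FPKM, *Pdk1*, a mitochondrial kinase that inhibits pyruvate dehydrogenase, at 7.27 ± 0.518 and 8.62 ± 0.978 FPKM, and the glycolytic enzyme *Aldoa* at 524 ± 48.7 and 618 ± 63.2 FPKM. Their exact permutation p-values were 0.0397, 0.0397 and 0.0476, and they rose above 0.05 in 7, 6 and 8 of the 10 fits that leave out 1 library. The smallest exact p possible is also larger in such fits. *Bhlhe40*, a transcriptional repressor of the clock and of metabolism, was at 50.0, 42.9, 50.5, 51.6 and 39.6 FPKM in males and 38.2, 41.8, 31.2, 36.2 and 32.0 FPKM in females. In 4 of 5 females it was below every male, the fold change was −0.39 on the log2 scale (SE 0.11, limma adjusted p = 0.0961), and the exact test gave p = 0.0159 and stayed at or below 0.0317 without any single library. Limma called *Bhlhe40* in 2 of 20 other settings, and its highest adjusted p was 0.223. These were without female 2 (adjusted p = 0.0473) and without male 5 and female 2 together (adjusted p = 0.0266). *Ddit4*, an inhibitor of mTORC1, averaged 29.1 ± 4.58 FPKM in males and 20.7 ± 5.45 FPKM in females, and its exact permutation p of 0.0317 (n = 5 each) rose above 0.05 in 6 of the 10 fits without 1 library. Limma called *Ddit4* in 1 of 20 other settings, without female 3 (adjusted p = 0.0383), and its highest adjusted p was 0.306. *Pfkfb4*, a regulator of glycolysis, is listed under 2 identifiers. Its row ENSRNOG00000020656 had means of 2.68 ± 1.04 FPKM in males and 1.51 ± 0.203 FPKM in females (p = 0.0238), and ENSRNOG00000048130 had 0.959 ± 1.1 and 1.44 ± 2.08 FPKM (p = 0.698), both by the exact permutation test, so the gene as a whole is uncertain. Most glycolytic targets did not differ beyond the spread, with log2 fold changes of 0.02 for *Pgk1*, 0.01 for *Eno1*, −0.12 for *Ldha* and 0.09 for the glucose transporter *Slc2a1*.

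**Figure D4:**
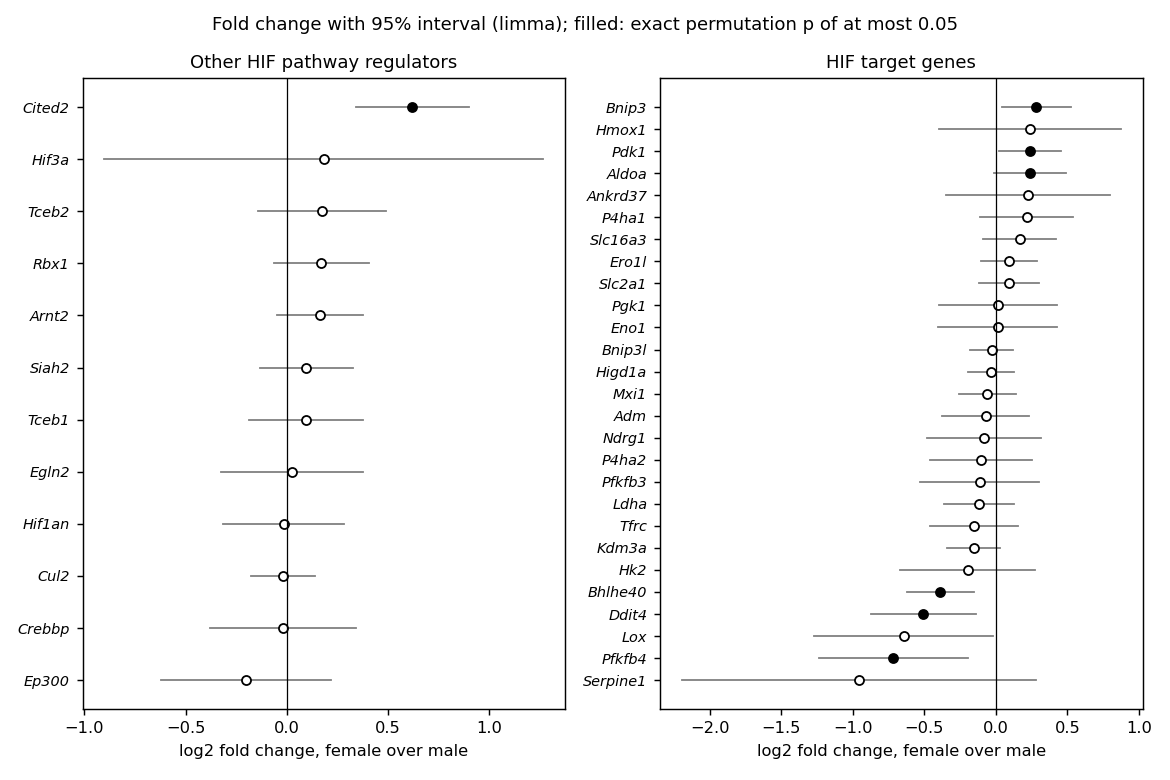
Log2 fold change of females over males (horizontal axes) with the 95% interval from limma for the 12 further regulators on the left and the HIF targets on the right, with filled points where the exact permutation p was at most 0.05. Cited2 stands alone at 0.62 among the regulators, while the 6 filled targets fall 3 on either side of zero. The lower row of Pfkfb4, ENSRNOG00000048130, is left out for its wide interval.

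Markers of the cell types that make or receive these factors also differed in level between the rats, and their part in the results above was not tested. The counts of markers stand beside 2.4% of all tested genes called by limma, 15.7% with an unadjusted limma p of at most 0.05, and 14.8% past the exact test (7.45% higher and 7.38% lower in females). All 7 podocyte markers had a positive log2 fold change (median 0.32), 0 were called by limma (2 had an unadjusted p of at most 0.05) and 0 passed the exact test, and their levels summed to between 148 and 207 FPKM in the males against 152 to 242 FPKM in the females. The ratio of *Vegfa* to this sum was 0.358 ± 0.0663 in males and 0.368 ± 0.0552 in females, with ranges that overlapped. Of 8 collecting duct markers, 6 passed the exact test, all higher in females, the median log2 fold change was 0.50, and limma called *Avpr2*, where the males summed to 256 to 402 FPKM and the females to 356 to 492 FPKM. The 6 markers of interstitial fibroblasts and pericytes, the cells that make erythropoietin, all had negative log2 fold changes (median −0.69), 4 of them were lower in females by the exact test, and limma called *Col3a1*. The sums of males, 277 to 359 FPKM, and of females, 113 to 258 FPKM, did not overlap. Blood vessel endothelium markers reached a sum of 183 to 234 FPKM among males and of 185 to 261 FPKM among females, with 0 of 7 called by limma and 1, *Esam*, past an unadjusted limma p of 0.05 and the exact test. The 6 macrophage markers all had negative log2 fold changes (median −0.48), with sums of 128 to 243 FPKM among males, male 5 being the highest, and of 60.7 to 153 FPKM among females, and 0 were called by either test (2 had an unadjusted limma p of at most 0.05). Proximal tubule markers were present in every library, and their sums were lowest in male 5 and female 2, at 1683 and 1454 FPKM, against 1843 to 2993 FPKM elsewhere. Of these 7 markers, limma called *Cubn*, which was higher in females, and the exact test passed 1 that was higher and 2 that were lower. Thick ascending limb markers, 4 in all, had sums of 1026 to 1547 FPKM among males and 1086 to 1716 FPKM among females, and those of the distal convoluted tubule had 83.3 to 148 FPKM and 126 to 187 FPKM, with *Pvalb*, a defining marker, listed at 0 in every library. Limma called 0 of these (1 and 2 had an unadjusted p of at most 0.05), and 1 of each list was higher in females by the exact test. The summed level of hemoglobin and other erythroid markers was 63.8 to 585 FPKM over the 10 libraries and overlapped between the sexes, with 0 of 5 tested past either test.

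**Figure D5:**
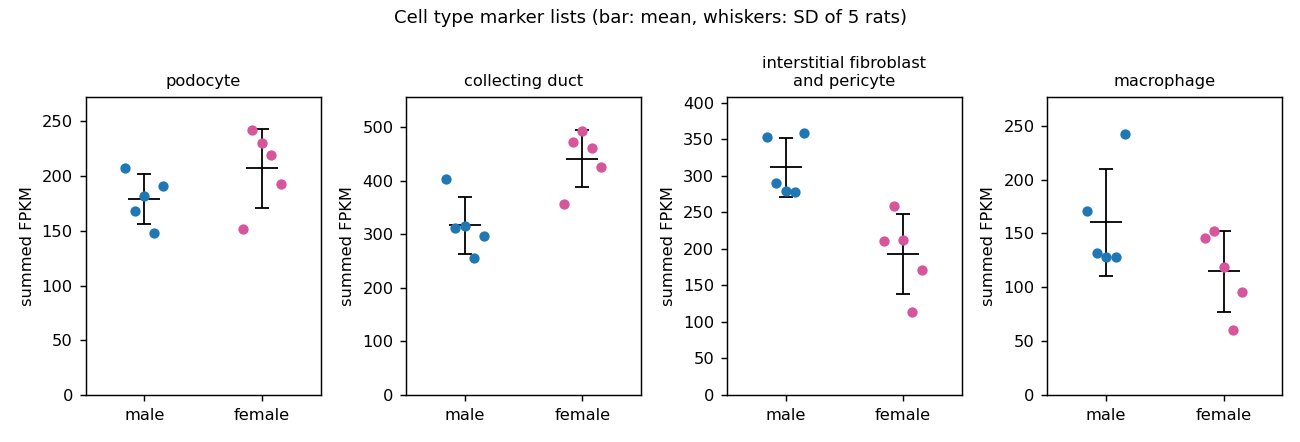
Summed FPKM of 4 lists of cell type markers (vertical axes, starting at 0), with 1 point per rat, the mean as a bar and the SD as whiskers. The sums for interstitial fibroblasts and pericytes are lower in every female than in any male (113 to 258 against 277 to 359 FPKM), while the other 3 lists overlap.

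How the members varied together from rat to rat was described by the correlation of log2 values over the 10 libraries after the mean of each sex was subtracted. These libraries share their scaling and tissue makeup, so the correlations carry no p. Among the members the closest pairs were *Epas1* and *Vegfb* (r = 0.66) and *Hif1a* and *Arnt* (r = 0.61), and the most opposed were *Arnt* and *Vhl* (r = −0.58). *Vegfa* followed neither α subunit closely, with r = 0.18 for *Hif1a* and 0.20 for *Epas1*. Among 13362 other genes whose mean reached 1 FPKM, the profile most like that of *Hif1a* was *Tanc1* (r = 0.971), followed by *Scmh1* (0.929) and *Cd46* (0.912). For *Epas1* they were *Rnf208* (0.968), *Ptch1* (0.941) and *Csrnp2* (0.924), and for *Vegfa* they were *Nr4a2* (0.928), *Glcci1* (0.928) and *Stoml2* (0.908). Each was the top of a search over all these genes with 10 libraries, and nothing is said of shared function.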

How the data were processed

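Novogene sequenced poly(A) RNA from renal cortex, 1 library for each of 5 males and 5 females, and samples were grouped by the sex in the labels. Per the labels and the methods, reads were trimmed with fastp, mapped with HISAT2 2.0.5 to Ensembl Rnor_6.0 and counted with featureCounts 1.5.0-p3, with StringTie 1.3.3b also named. Whether counting used strand is not given in the sources used here. The authors deposited FPKM, which are values per gene length and library size, and tested their counts with DESeq2, which were not used here.

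From the FPKM, limma 3.58.1 (R 4.3.3, lmFit and eBayes with trend) was run on log2(FPKM + 0.1) for the 17631 genes whose mean reached 0.1 FPKM, with Benjamini-Hochberg adjustment and a call at 0.05. On this scale fold changes of low genes are understated. Intervals of ratios come from these fits, turned back from the log2 scale, and are not intervals of the ratio of mean FPKM. The thresholds of the methods, which add a log2 fold change of at least 1, left 1.32% of tested genes in place of 2.4%. Exact permutation tests (Python 3.11.15 with scipy 1.17.1, numpy 2.4.6 and pandas 2.3.3), two-sided, compared mean FPKM, unadjusted and read against the share of all tested genes. FPKM times gene length, divided by what 1 read is worth in the library, gave whole reads within 0.01 reads for 100% of values, and limma-voom on these reads called 504 genes in place of 424. No pair of libraries was alike within sampling noise. Figures were drawn with matplotlib 3.10.9.

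The members and gene lists were chosen with earlier results of these data known. Named were all members, any listed gene past either test, and further listed genes with their values for context, the last chosen after their values were seen, and for *Hif1a*, *Epas1* and *Vegfa* the 3 genes most correlated. *Ca9* had no row under its symbol. Both tests were checked on simulated data. Alternatives were other pseudocounts and filters, quantile normalization, scaling to nuclear reads, a replicate block, robust eBayes, limma-voom and leaving out each library. Leaving out male 5 with female 2, the ratios, and alternatives for single genes outside the members were added after the data were seen.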

Additional observations from a re-analysis of the deposited data

Results flagged for a closer look

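A single library stood far from the others of its sex for 2 members, when the gap of the highest or lowest of 5 values to its neighbor was set against the whole range of the group. *Vhl* in female 2 was at 16.6 FPKM, with a gap of 0.717 of the range against a critical value of 0.71. *Vegfb* in male 5 was at 16.7 FPKM, with a gap of 0.825 of the range. Of 18 groups checked, 2 were set apart in this way, and chance does so for about 1 in 20 groups. Female 2 and male 5 are also the libraries least like the others of their sex over all genes, and their part in these values was not tested.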

How the results depend on the processing

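The members, the counts of their pathway lists and 8 named genes of these lists were computed under up to 20 other settings for limma, with a fold limit as 1 more for the counts, and, except for the list counts, 13 for the exact test, and the marker lists and other genes were not. No member was called by limma under any of them, with 0 of 9 under the replicate block, and *Vegfa* kept log2 fold changes of 0.20 to 0.29. Members past the exact test numbered 3 after scaling to nuclear reads, with *Vhl* added, 1 to 2 when 1 library was left out and 1 without male 5 and female 2, where *Hif1a* passed (−4.31 FPKM, exact p = 0.0286) and *Vegfa* and *Vegfb* did not. The call among the further HIF regulators, *Cited2*, was 0 under quantile normalization, under the replicate block (adjusted p = 0.0961), without male 5 and female 2 and with a fold limit added, and 0 to 1 when 1 library was left out. HIF targets went from 0 calls to 1 without male 5 and female 2, and were 0 to 1 when 1 library was left out, as were the VEGF receptors and other ligands. The replicate numbers are only shared labels, since same-numbered rats correlated at −0.16 to 0.16 in their deviations from the means of their sex. Of all the rats, only male 3 correlated best with the rat of its own number. Over all genes the block called 231 in place of 424, and leaving out 1 library called 266 to 550, the least without female 5 and the most without female 2.

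Directions turned for 4 members near 0, none past a test. For *Epas1* leaving out libraries gave log2 fold changes of −0.14 to 0.0019 and differences of −4.89 to 0.109 FPKM, the lower ends without male 5 and female 2 together. For *Arnt* these were −0.051 to 0.083 and −0.527 to 0.807 FPKM, again lowest without both libraries, with −0.0077 and −0.0457 FPKM after scaling to nuclear reads. For *Egln3* they were −0.062 to 0.14 and −0.259 to 0.527 FPKM. For *Vegfc* they were −0.10 to 0.0085 and −0.315 to 0.0386 FPKM, with 0.036 under quantile normalization. The cause was not tested. *Epo* gave no value with a filter at a mean of 1 FPKM. The 5 rats per sex and the few reads on *Epo* limit what could be seen.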
